A study of Mus musculus with 15 samples.

Results

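The tricarboxylic acid (TCA) cycle and the entry of pyruvate into it were described here through 35 genes of a pathway list, matched by symbol. All 35 of 35 were found among the 24015 genes of the count table, and 35 passed the filter on low counts, which kept 15288 genes in all. Messenger RNA was sequenced from inguinal white adipose tissue, the subcutaneous fat pad of the groin, of C57BL/6 mice. Young mice were 2 months old and aged mice 12 months old; all were kept at thermoneutrality for 2 weeks and then injected intraperitoneally for 5 days. The 4 groups were young mice given vehicle (Young_Ctrl, n = 4), young mice given CL (Young_CL, n = 4), aged mice given vehicle (Old_Ctrl, n = 3, numbered 1, 3 and 4) and aged mice given CL (Old_CL, n = 4). No genetic change is named in the labels, and the sex of the mice is not given in the sources used here. The labels spell CL out as cardiolipin, a mitochondrial lipid, although the same letters commonly stand for a β-adrenergic agonist used to induce beige fat. The identity of the compound could not be settled, so the name CL is kept. Whether each library came from its own animal is not stated, so a p-value here speaks of the variation among the libraries of a group, which may be technical.

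Pyruvate made by glycolysis crosses the inner mitochondrial membrane through the carrier formed by MPC1 and MPC2. The pyruvate dehydrogenase complex turns it into acetyl-CoA; kinases (PDK) switch the complex off by phosphorylation and phosphatases (PDP) switch it on again. Citrate synthase then joins acetyl-CoA to oxaloacetate, and the enzymes of the cycle oxidise citrate stepwise back to oxaloacetate, feeding electrons to the respiratory chain. Pyruvate carboxylase refills oxaloacetate, while glutamate dehydrogenase and aspartate aminotransferase link the cycle to amino acids. In beige and brown adipocytes these enzymes supply the respiration that produces heat, and in white adipocytes citrate leaves the mitochondria as a source of carbon for fatty acids.

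Total counts per library ran from 6115542 to 51577001, and levels are given as CPM (a gene's counts relative to the total of its library, scaled by TMM factors). Before that scaling, 3 counts correspond to 0.0582 CPM in the deepest and 0.491 CPM in the shallowest library. Adipocyte transcripts were abundant in every library: the 12 markers of white and shared adipocytes, among them Adipoq and Plin1, summed to between 23889 CPM (Young_Ctrl 4) and 111360 CPM (Old_CL 3). Skeletal muscle transcripts were abundant in 5 libraries, Young_CL 1, 2 and 3, Old_Ctrl 3 and Old_CL 3, where the mean log2 CPM of 16 muscle markers was 6.71 to 7.72 against 1.73 to 4.55 in the other 10. Young_Ctrl 1 stood apart from its group in adipocyte transcripts, with a sum of 57296 CPM against 23889 to 32510.5 in the other 3 libraries. Old_CL 1, 2 and 4 resembled each other more closely than any other pair within a group, with a robust SD of log2 ratios of 0.0636 to 0.0933 against 0.116 to 0.747, but their counts differed by more than sampling noise (chi-square per degree of freedom 2.65 to 4.90) and they were kept as 3 samples.

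Nearly the whole pathway rose with CL in the young fat pad. Of the 35 genes 34 changed, where 43.9% of all tested genes did. Of these 32 rose, where 21.7% of all tested genes were called higher, and 2 fell, Pdk3 and Got2, where 22.1% were called lower (edgeR adjusted p under 0.05). The libraries of the CL and vehicle groups did not overlap for 32 genes that were higher and 1 that was lower, where 18.0% and 16.1% of all genes separated in these directions. The median log2 change of the 35 genes was 1.90, against -0.07 over all genes tested. In the aged pad 34 of the 35 changed, against 45.2% of all genes: 31 rose and 3 fell, Pdk3, Pdp1 and Got2, where 23.1% and 22.2% of all genes were called higher and lower. There the libraries did not overlap for 31 higher and 3 lower genes (27.9% and 25.0% of all genes), and the median log2 change was 1.50 against -0.01. The same 31 genes rose at both ages. Together the 35 genes took up 0.584 ± 0.110% of all counts in Young_Ctrl and 1.80 ± 0.186% in Young_CL (SD, n = 4 each), and 0.561 ± 0.040% in Old_Ctrl (n = 3) and 1.36 ± 0.055% in Old_CL (n = 4). In whole tissue, more cells of a type and more RNA per cell cannot be told apart.

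**Figure D1:**
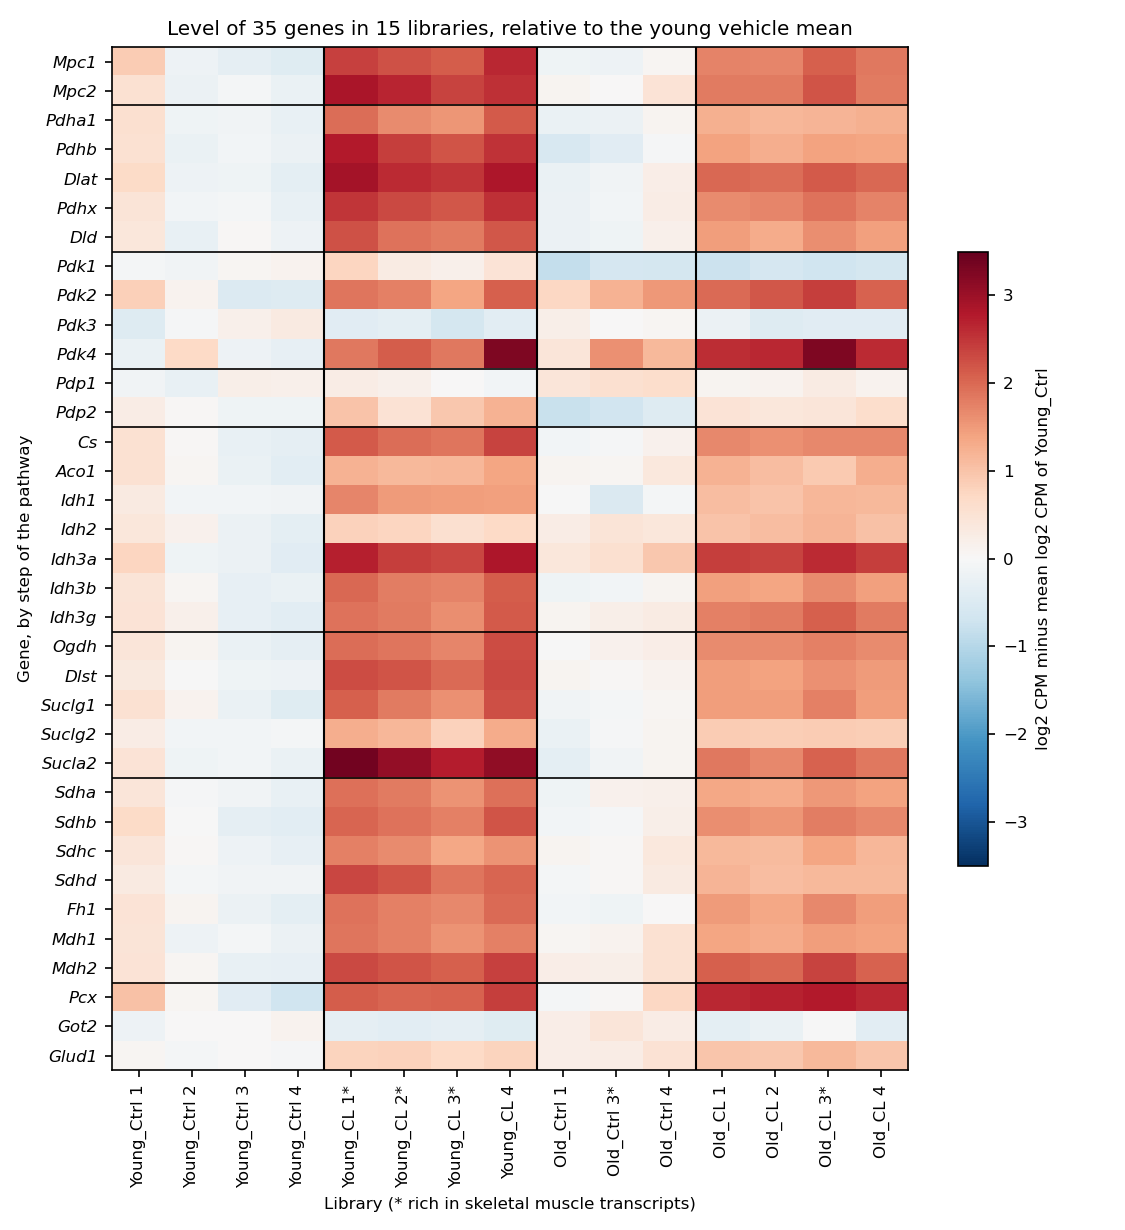
Level of the 35 genes (rows, ordered by step of the pathway) in the 15 libraries (columns), as log2 CPM minus the mean log2 CPM of the young vehicle group; red is higher, blue is lower, and asterisks mark the 5 libraries rich in skeletal muscle transcripts. All 4 young and all 4 aged CL libraries are red for most genes, including Young_CL 4 with few muscle transcripts, while the rows of Pdk3, Pdp1 and Got2, and that of Pdk1 in aged mice, stay pale or turn blue.

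Muscle is rich in mitochondria, and 3 of the 4 young CL libraries held muscle transcripts. Their 16 markers summed to between 98.3 and 492 CPM in Young_Ctrl, 148 and 5728 in Young_CL, 135 and 9039 in Old_Ctrl, and 335 and 4333 in Old_CL; 1 marker, Myl1, was called higher in young CL and 1, Mb, in aged CL. Young_CL 4 was the young CL library with few muscle transcripts (score 2.22). In it 32 of the 35 genes stood above all 4 young vehicle libraries, a share not counted over all genes. That library also stood below Young_CL 1 to 3 in macrophage markers (378 against 1095 to 1137 CPM) and in progenitor and stromal markers (1875 against 3407 to 4713 CPM). Among the aged libraries with few muscle transcripts, 31 of the 35 were higher in all 3 CL libraries than in both vehicle libraries, and 3 were lower. Over all genes this was not counted either, so these counts do not set the 35 apart from other genes. Without the 5 muscle-rich libraries 31 genes rose and 0 fell in young CL and 30 rose and 1 fell in aged CL (19% and 32% of all genes were called there), with 1 CL library left in the young fit, assumed to vary like the other groups. Of the adipocyte markers 9 of 12 rose in young CL, where their sum was 66456 to 75982 CPM against 23889 to 57296 with vehicle, and 10 of 12 rose in aged CL, where it was 91121.5 to 111360 against 41457 to 60876 CPM. All 9 thermogenic adipocyte markers rose at both ages; their sum was 65.9 to 209 CPM in Young_Ctrl, 1839 to 2722 in Young_CL, 32.7 to 42.6 in Old_Ctrl and 566 to 699 in Old_CL, with Elovl3 at 0 counts in Young_Ctrl 2 and Old_Ctrl 1 and Cpn2 at 0 counts in Old_Ctrl 1. B cell and lymph node markers fell, 14 of 14 in young CL (1704 to 2426 CPM with vehicle, 1040.0 to 1422 with CL) and 11 of 14 in aged CL (697 to 1244 with vehicle, 508 to 688 with CL). In aged CL 5 of 8 macrophage markers (1548 to 2803 CPM with vehicle, 933 to 1398 with CL) and 5 of 5 progenitor and stromal markers (3696 to 10419 CPM with vehicle, 2460 to 2710 with CL) fell as well. Adjusted for the lymph node score, 29 of the 35 genes rose in young CL, where 9.39% of all genes were called in either direction, and 27 in aged CL, where 16.7% were. The score did not overlap between CL and vehicle in young (5.99 to 6.36 against 6.62 to 7.19) or aged mice (4.82 to 5.29 against 5.42 to 6.21). This fit therefore cannot tell CL from the lymph node shift, and the part of the shifts in cell type markers was not tested.

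Both subunits of the mitochondrial pyruvate carrier rose. Mpc1 stood at 96.0, 46.4, 42.2 and 39.0 CPM in Young_Ctrl 1 to 4 and at 271, 242, 226 and 326 CPM in Young_CL 1 to 4 (log2 change 2.26, SE 0.24, edgeR adjusted p = 3.3e-06). In aged mice Mpc1 was 46.5, 45.7 and 54.8 CPM in Old_Ctrl 1, 3 and 4 and 175, 170.4, 223 and 187 CPM in Old_CL 1 to 4 (log2 change 1.94, SE 0.26, edgeR adjusted p = 6.7e-05). At each age every CL library lay above every vehicle library, and Young_Ctrl 1 was the highest of the vehicle libraries. Mpc2 went from 91.0, 54.6, 60.6 and 53.5 CPM to 456, 400.2, 323 and 371 CPM in young mice (log2 change 2.58, SE 0.18, edgeR adjusted p = 6.4e-08). In aged mice Mpc2 was 67.2, 64.5 and 88.1 CPM with vehicle and 222, 225, 289 and 225 CPM with CL (log2 change 1.71, SE 0.19, edgeR adjusted p = 1.9e-05), again without overlap. Reads of Mpc1 are less certain because RefSeq lists a pseudogene copy (Mpc1-ps), and how reads with several matches were counted is not given in the sources used here.

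All 5 genes of the pyruvate dehydrogenase complex rose at both ages, with no overlap between the CL and vehicle libraries. Dlat, the acetyltransferase core, had the largest change of the complex: 119, 66.5, 67.9 and 58.6 CPM in the young vehicle libraries and 565, 457, 424 and 534 CPM in the young CL libraries (log2 change 2.67, SE 0.20, edgeR adjusted p = 9.7e-08). In aged mice Dlat stood at 63.4, 68.3 and 88.1 CPM with vehicle and 304, 293, 333 and 302 CPM with CL (log2 change 2.07, SE 0.21, edgeR adjusted p = 1.3e-05). The aged CL libraries lay close together, from 293 to 333 CPM, and all below the young CL libraries. The decarboxylase subunits Pdha1 and Pdhb rose from 252 ± 71.9 to 879 ± 171 CPM and from 130.0 ± 36.4 to 716 ± 120.3 CPM in young mice (SD, n = 4 each; log2 changes 1.80 and 2.46). Their log2 changes in aged mice were 1.31 and 1.67. Pdhx, which binds the dehydrogenase to the core, changed by 2.38 and 1.74 in young and aged mice on the log2 scale, and Dld, the dihydrolipoamide dehydrogenase shared with the 2-oxoglutarate complex, by 2.02 and 1.50. The edgeR adjusted p of these 5 genes was at most 1.6e-06 in young and 0.00013 in aged mice.

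The 4 kinases that inactivate the complex did not move together. Pdk4, the kinase induced in fasting and fat oxidation, rose most: 73.3, 140.5, 76.4 and 71.0 CPM in Young_Ctrl and 312, 377, 312 and 840.3 CPM in Young_CL (log2 change 2.35, SE 0.36, edgeR adjusted p = 0.00015). In aged mice Pdk4 was 117, 263 and 191 CPM with vehicle and 518, 541, 837 and 526 CPM with CL (log2 change 1.67, SE 0.39, edgeR adjusted p = 0.0033). Young_CL 4 and Old_CL 3 held the highest values, more than 1.5 times those of the other CL libraries of the same age, and no CL library overlapped with the vehicle group of its age. Pdk2, the most widely expressed kinase, rose from 94.6, 58.1, 38.0 and 38.6 CPM to 194, 183, 139 and 226 CPM in young mice (log2 change 1.70, SE 0.26, edgeR adjusted p = 0.00014). In aged mice Pdk2 was 88.5, 125 and 152 CPM with vehicle and 211, 242, 286 and 224 CPM with CL (log2 change 0.98, SE 0.28, edgeR adjusted p = 0.011; adjusted p = 0.056 without Old_Ctrl 1). The groups did not overlap at either age.

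Pdk1, a kinase known as a target of the hypoxia factor HIF1, rose slightly in young mice, from 96.3, 92.5, 106 and 110.0 CPM to 169, 123, 114 and 141 CPM without overlap (log2 change 0.43, SE 0.11, edgeR adjusted p = 0.0057). In aged mice it was 56.6, 67.0 and 66.2 CPM with vehicle and 59.8, 66.9, 62.8 and 65.8 CPM with CL, overlapping groups that did not pass the test (log2 change 0.0093, SE 0.12, edgeR adjusted p = 0.96). All 7 aged libraries lay below all 8 young ones. Pdk3, the kinase with the fewest counts, fell at both ages. It stood at 9.47, 12.4, 14.4 and 16.1 CPM in Young_Ctrl and 9.69, 10.1, 8.45 and 9.86 CPM in Young_CL, where Young_Ctrl 1 overlapped with the CL libraries (log2 change -0.46, SE 0.14, edgeR adjusted p = 0.014; adjusted p = 0.063 without Young_Ctrl 4). In aged mice it was 14.7, 13.0 and 13.4 CPM with vehicle and 11.1, 9.40, 9.67 and 9.79 CPM with CL, which did not overlap (log2 change -0.45, SE 0.15, edgeR adjusted p = 0.02; adjusted p = 0.066 without Old_Ctrl 1 and 0.051 without Old_CL 2).

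The phosphatases that reactivate the complex also differed. Pdp2 rose from 20.5, 17.6, 15.6 and 15.5 CPM to 34.4, 24.4, 33.0 and 40.2 CPM in young mice (log2 change 0.94, SE 0.14, edgeR adjusted p = 8.7e-05) and from 9.94, 10.9 and 12.5 CPM to 23.9, 22.6, 23.0 and 26.2 CPM in aged mice (log2 change 1.10, SE 0.15, edgeR adjusted p = 8.1e-05), without overlap at either age. Pdp1, the calcium-dependent form, was 11.7, 10.7, 14.8 and 14.7 CPM in Young_Ctrl and 15.3, 14.6, 13.1 and 12.1 CPM in Young_CL and did not pass the test (log2 change 0.082, SE 0.12, edgeR adjusted p = 0.61). In aged mice Pdp1 fell from 17.1, 18.9 and 19.6 CPM to 13.7, 13.9, 15.8 and 14.1 CPM without overlap (log2 change -0.37, SE 0.13, edgeR adjusted p = 0.027). That call was lost when Old_Ctrl 3 or 4 or Old_CL 1, 2 or 4 was left out (adjusted p = 0.057 to 0.088). Both phosphatases and Pdk3 had low levels, under 41 CPM in every library, and few counts limit their precision in the shallow libraries.

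**Figure D2:**
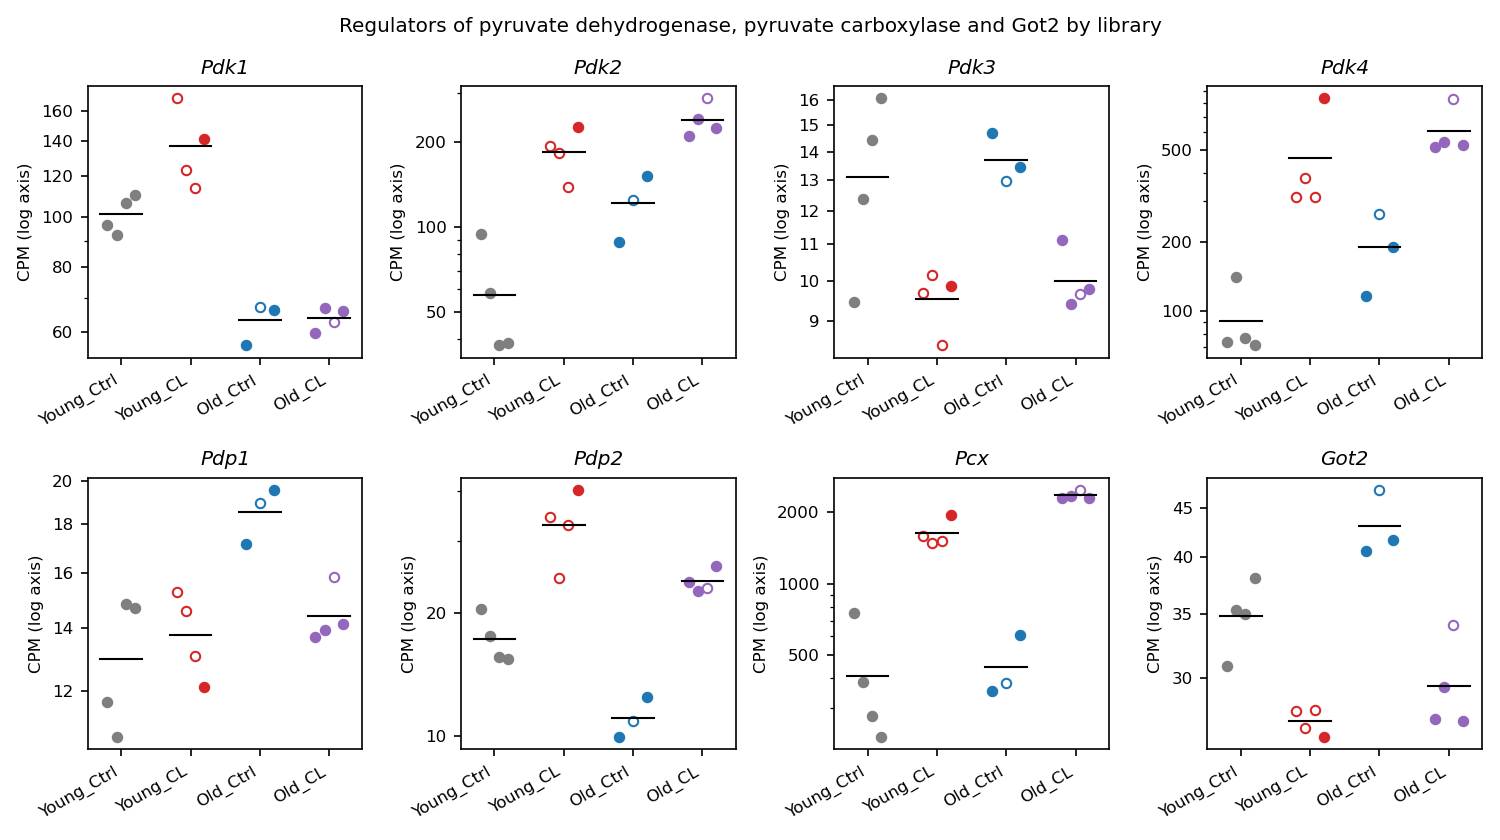
CPM on a log axis of the 4 kinases, the 2 phosphatases, Pcx and Got2 in each library, by group; bars mark group means, and open dots the 5 libraries rich in muscle transcripts. Pdk2, Pdk4, Pdp2 and Pcx are higher with CL at both ages, Pdk3 and Got2 are lower, and Pdk1 is at 56.6 to 67.0 CPM in all aged libraries against 92.5 to 169 CPM in the young ones.

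The steps from citrate to 2-oxoglutarate rose at both ages for 7 of 7 genes. Cs, citrate synthase, which opens the cycle and is widely used as a marker of mitochondrial content, went from 479, 338, 274 and 263 CPM in Young_Ctrl to 1448, 1285, 1209 and 1688 CPM in Young_CL (log2 change 2.06, SE 0.18, edgeR adjusted p = 3.5e-07). In aged mice Cs was 310.1, 323 and 366 CPM with vehicle and 1045, 998, 1065 and 1058 CPM with CL (log2 change 1.65, SE 0.19, edgeR adjusted p = 2.3e-05), and at both ages the lowest CL library was more than 2 times the highest vehicle library. Idh3a, the catalytic subunit of the NAD-dependent isocitrate dehydrogenase, was 179.9, 97.1, 92.5 and 82.2 CPM with vehicle and 704, 579, 542 and 761 CPM with CL in young mice (log2 change 2.52, SE 0.22, edgeR adjusted p = 4.3e-07). Its log2 change in aged mice was 1.80 (SE 0.24, edgeR adjusted p = 5.6e-05). The partner subunits Idh3b and Idh3g changed by 1.90 and 1.84 in young and by 1.52 and 1.68 in aged mice on the log2 scale. The NADP-dependent enzymes changed less. Idh2, the mitochondrial one, went from 132 ± 31.5 to 211 ± 14.6 CPM in young and from 167 ± 11.5 to 275 ± 16.2 CPM in aged mice (SD; log2 changes 0.68 and 0.72, edgeR adjusted p = 0.00098 and 0.0012). Idh1, the cytosolic one, changed by 1.52 and 1.28. Aco1, the cytosolic aconitase that also acts as an iron sensor, changed by 1.19 and 0.94 (edgeR adjusted p = 4e-05 and 0.00068).

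From 2-oxoglutarate to succinate 5 of 5 genes rose at both ages. Sucla2, the subunit of succinate-CoA ligase that makes ATP, had the largest change of all 35 genes in young mice, from 142, 90.9, 95.4 and 86.2 CPM to 1054, 859.6, 687 and 869.9 CPM (log2 change 3.07, SE 0.18, edgeR adjusted p = 1.8e-08), or 8.40-fold. In aged mice Sucla2 was 80.4, 93.2 and 108 CPM with vehicle and 365, 328, 427 and 363 CPM with CL (log2 change 1.98, SE 0.19, edgeR adjusted p = 7.1e-06), or 3.95-fold. Every young CL library lay above every aged CL library, and the vehicle libraries of the 2 ages overlapped. Suclg2, the alternative subunit that makes GTP, rose less, from 47.9 ± 6.39 to 106 ± 15.5 CPM in young and from 46.0 ± 5.30 to 86.8 ± 1.18 CPM in aged mice (SD; log2 changes 1.15 and 0.91, edgeR adjusted p = 1.8e-06 and 7.3e-05). Suclg1, the subunit common to both forms, changed by 1.93 and 1.58. In the 2-oxoglutarate dehydrogenase complex, Ogdh changed by 1.94 and 1.56 and its core gene Dlst by 2.19 and 1.41, with an edgeR adjusted p of at most 3.2e-07 in young and 2.2e-05 in aged mice.

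The steps from succinate to oxaloacetate rose for 7 of 7 genes. Among the 4 subunits of succinate dehydrogenase, which is also complex II of the respiratory chain, the membrane anchor gene Sdhd went from 154, 118, 115 and 115 CPM to 628, 576, 458 and 516 CPM in young mice (log2 change 2.12, SE 0.13, edgeR adjusted p = 3.2e-08) and from 118, 128 and 155 CPM to 284, 266, 275 and 273 CPM in aged mice (log2 change 1.03, SE 0.14, edgeR adjusted p = 6.5e-05). The flavoprotein gene Sdha, the iron-sulfur protein gene Sdhb and the other anchor gene Sdhc changed by 1.80, 1.92 and 1.58 in young mice and by 1.33, 1.64 and 1.02 in aged mice. Fh1, fumarate hydratase, changed by 1.80 and 1.58. Of the malate dehydrogenases, the mitochondrial Mdh2 changed by 2.22 and 1.80 and the cytosolic Mdh1 by 1.73 and 1.14. The largest edgeR adjusted p among these 7 genes was 1.8e-06 in young and 0.00021 in aged mice, and none of them overlapped between CL and vehicle libraries.

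The genes that fill the cycle or drain it to amino acids went different ways. Pcx, pyruvate carboxylase, had the largest change of the 35 genes in aged mice, from 353, 380.1 and 607 CPM to 2303, 2352, 2489.8 and 2301 CPM (log2 change 2.40, SE 0.34, edgeR adjusted p = 8.9e-05). In young mice it went from 753, 385, 276 and 226 CPM to 1584, 1491, 1520.5 and 1950.1 CPM (log2 change 2.00, SE 0.30, edgeR adjusted p = 9.9e-05). All 4 aged CL libraries lay above all 4 young CL libraries. Glud1, glutamate dehydrogenase, rose from 218 ± 8.76 to 372 ± 11.1 CPM in young and from 276 ± 30.1 to 437 ± 27.1 CPM in aged mice (SD; log2 changes 0.77 and 0.66, edgeR adjusted p = 9.8e-06 and 0.00014). Got2, the mitochondrial aspartate aminotransferase of the malate-aspartate shuttle, fell. It was 30.9, 35.3, 34.9 and 38.1 CPM in Young_Ctrl and 27.8, 26.7, 27.8 and 26.1 CPM in Young_CL (log2 change -0.37, SE 0.092, edgeR adjusted p = 0.0047), and 40.6, 47.0 and 41.7 CPM in Old_Ctrl and 27.2, 29.4, 34.1 and 27.1 CPM in Old_CL (log2 change -0.55, SE 0.10, edgeR adjusted p = 0.00041). No CL library reached a vehicle library of the same age. RefSeq lists pseudogene copies of Got2 (Got2-ps1) and Glud1 (Glud-ps), so the counts of both genes are uncertain.

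**Figure D3:**
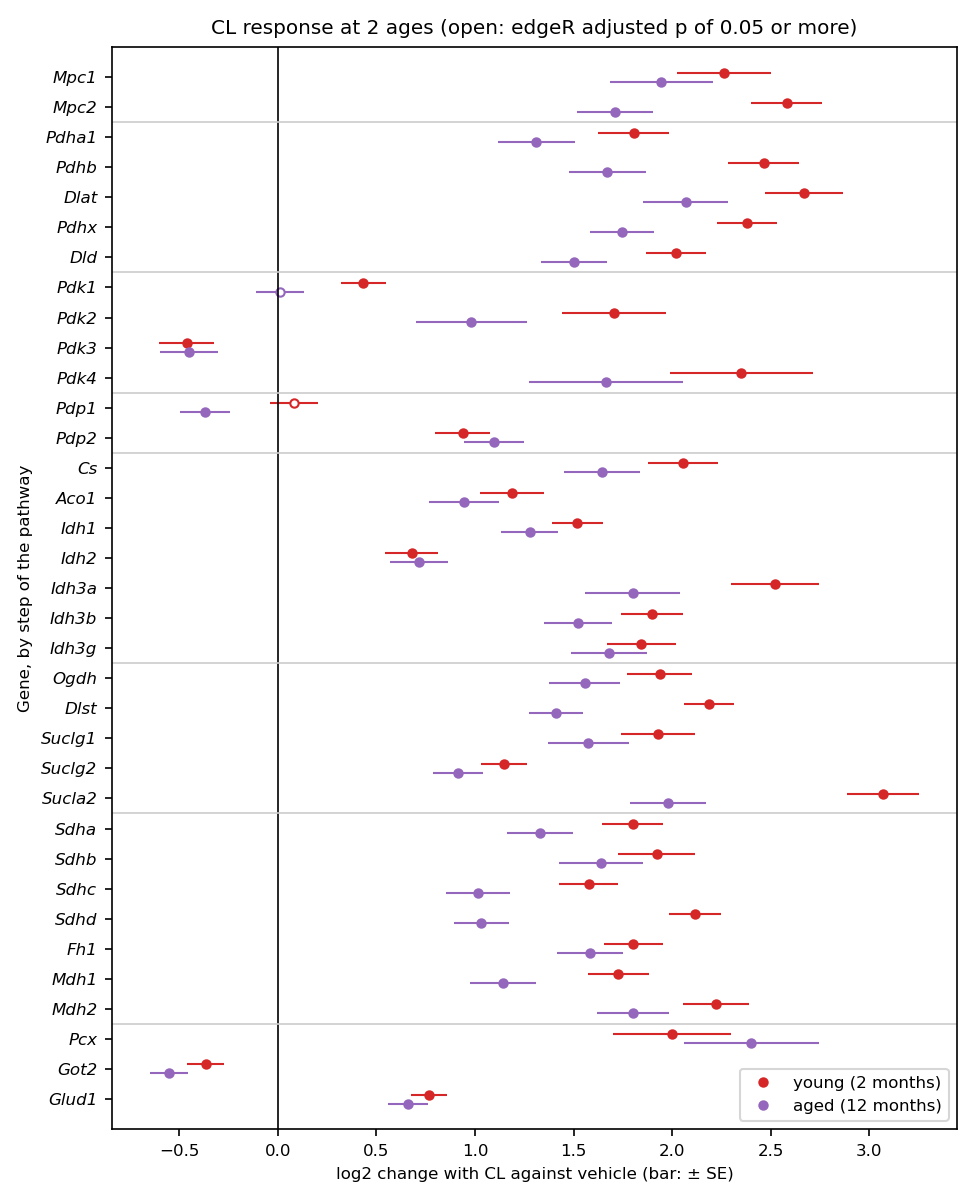
log2 change with CL against vehicle for the 35 genes in young (red) and aged (purple) mice, with bars of ± SE from edgeR; open dots did not reach an adjusted p under 0.05. All but Pdk1, Pdk3, Pdp1 and Got2 lie right of 0 with filled dots at both ages. In young mice 31 of 35 estimates lie further right, a share not counted over all genes, with Sucla2 at 3.07 and 1.98.

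Because so many of the genes moved together, the 250 bases before the RefSeq start were scanned for 4 short motifs on both strands (GRCm38.p6, another assembly than the mm9 used for the counts). The search covered 42 windows of 32 genes; Idh3a, Pdp1 and Sdhc had no entry. The cAMP response element, TGACGTCA, was in 4 of the 42 windows (9.52%), 1 of Mdh2 and 3 overlapping ones of Ogdh, against 1.55% of all 32817 windows. The 3 Ogdh windows share 1 and the same site, so the motif was found in 2 of the 32 genes, and the share of windows counts that site 3 times. The estrogen-related receptor core AAGGTCA, the NRF1 motif and the ETS motif CCGGAAGT were in 0 of 42, against 4.08%, 0.777% and 2.88% of all windows. The windows of Mdh2 (chr5:135778399-135778648, plus strand) and Ogdh (chr11:6291347-6291596, plus strand) are shown for the motif, in capitals, and those of Sucla2 (chr14:73552536-73552785, plus strand), with the largest young response, and Got2 (chr8:95888402-95888651, minus strand), which fell, for contrast; each reads 5′ to 3′ on the strand of its gene.
Mdh2: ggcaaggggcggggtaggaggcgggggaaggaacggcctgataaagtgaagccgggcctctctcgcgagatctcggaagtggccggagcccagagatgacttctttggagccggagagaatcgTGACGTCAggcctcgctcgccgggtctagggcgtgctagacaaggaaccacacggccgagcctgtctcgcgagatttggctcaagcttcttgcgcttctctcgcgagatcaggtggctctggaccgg
Ogdh: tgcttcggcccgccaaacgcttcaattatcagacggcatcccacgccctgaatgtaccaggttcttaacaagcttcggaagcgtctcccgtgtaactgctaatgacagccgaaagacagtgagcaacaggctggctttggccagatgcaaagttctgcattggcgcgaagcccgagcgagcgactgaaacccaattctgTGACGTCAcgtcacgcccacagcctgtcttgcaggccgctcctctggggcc
Sucla2: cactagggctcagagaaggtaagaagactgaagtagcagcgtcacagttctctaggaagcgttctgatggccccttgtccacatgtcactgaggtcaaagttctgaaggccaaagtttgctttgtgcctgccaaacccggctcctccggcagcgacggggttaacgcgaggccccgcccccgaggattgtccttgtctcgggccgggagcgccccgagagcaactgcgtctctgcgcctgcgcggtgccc
Got2: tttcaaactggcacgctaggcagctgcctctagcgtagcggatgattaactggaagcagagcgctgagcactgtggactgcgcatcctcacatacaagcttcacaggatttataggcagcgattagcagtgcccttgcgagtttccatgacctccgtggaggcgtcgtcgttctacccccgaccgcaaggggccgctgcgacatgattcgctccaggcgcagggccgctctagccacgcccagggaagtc
Neither Sucla2 nor Got2 holds any of the 4 motifs in its window, and a match says only that these letters occur there.

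How the paired genes shifted against each other was read from ratios within each library, which do not depend on the scaling of libraries; since gene lengths were not used, only changes of a ratio are compared. In all 10 ratios were computed, and p-values come from two-sided exact permutation tests adjusted over the 10 in each comparison. Of the 40 tests 6 passed, all between aged and young CL libraries. The tests of 4 against 3 libraries, aged CL and age under vehicle, could not pass (smallest exact permutation p = 0.057). Ratios without overlap in young CL had the same exact permutation p = 0.029 as those that passed. Their adjusted p was 0.057 because fewer ratios separated there, so passing does not rank the age shifts above the CL shifts. The log2 ratio of Sucla2 to Suclg2, the ATP-making against the GTP-making ligase subunit, was 1.30, 1.03, 1.10 and 0.92 in Young_Ctrl and 3.20, 3.02, 3.04 and 2.89 in Young_CL. In aged mice it was 0.99, 1.01 and 1.08 with vehicle and 2.05, 1.93, 2.28 and 2.08 with CL. The vehicle libraries of both ages lay from 0.92 to 1.30, all CL libraries lay above them, and the young CL libraries lay above the aged ones (difference between aged and young CL -0.95, exact permutation p = 0.029, adjusted p = 0.048). CL shifted the ratio by 1.94 in young mice (exact permutation p = 0.029, the smallest that 4 against 4 allow, adjusted p = 0.057) and by 1.06 in aged mice (exact permutation p = 0.057, the smallest that 4 against 3 allow).

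Within the isocitrate dehydrogenases, the ratio of Idh3a to Idh2 shifted by 1.87 with CL in young and by 1.10 in aged mice, and that of Idh2 to Idh1 by -0.82 and -0.57. The CL and vehicle libraries did not overlap in any of these. Under CL the aged mice had a higher Idh2 to Idh1 ratio by 0.81 and a lower Idh3a to Idh2 ratio (-0.50), each with an exact permutation adjusted p = 0.048. The ratio of Mdh2 to Mdh1 shifted by 0.50 and 0.65 with CL in young and aged mice and was 0.23 higher in aged than in young CL libraries (exact permutation adjusted p = 0.048). The ratio of Got2 to Glud1 shifted by -1.13 and -1.22 with CL.

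At the branch of pyruvate, the log2 ratio of Pcx to Pdha1, carboxylation against oxidation, was 1.07, 0.81, 0.29 and 0.15 in Young_Ctrl and 0.73, 0.95, 1.10 and 0.85 in Young_CL, overlapping groups (difference 0.33, exact permutation p = 0.26). In aged mice it was 0.77, 0.83 and 1.20 with vehicle and 1.98, 2.10, 2.15 and 1.99 with CL, without overlap (difference 1.13). The aged CL libraries stood above all others, 1.15 over young CL (exact permutation adjusted p = 0.048). For Pdp1 to Pdp2 the ratio was 0.78, 0.80 and 0.65 in Old_Ctrl and -0.80, -0.70, -0.54 and -0.89 in Old_CL (difference -1.48), and in young mice the groups overlapped (difference -0.83, exact permutation p = 0.057). Cs to Pdha1 was 0.19 higher in aged than in young CL libraries (exact permutation adjusted p = 0.048). Without any single Young_CL or Old_CL library 0 of the 40 tests passed, since 4 against 3 libraries cannot reach an adjusted p under 0.05, and without the 5 muscle-rich libraries 0 passed as well.

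**Figure D4:**
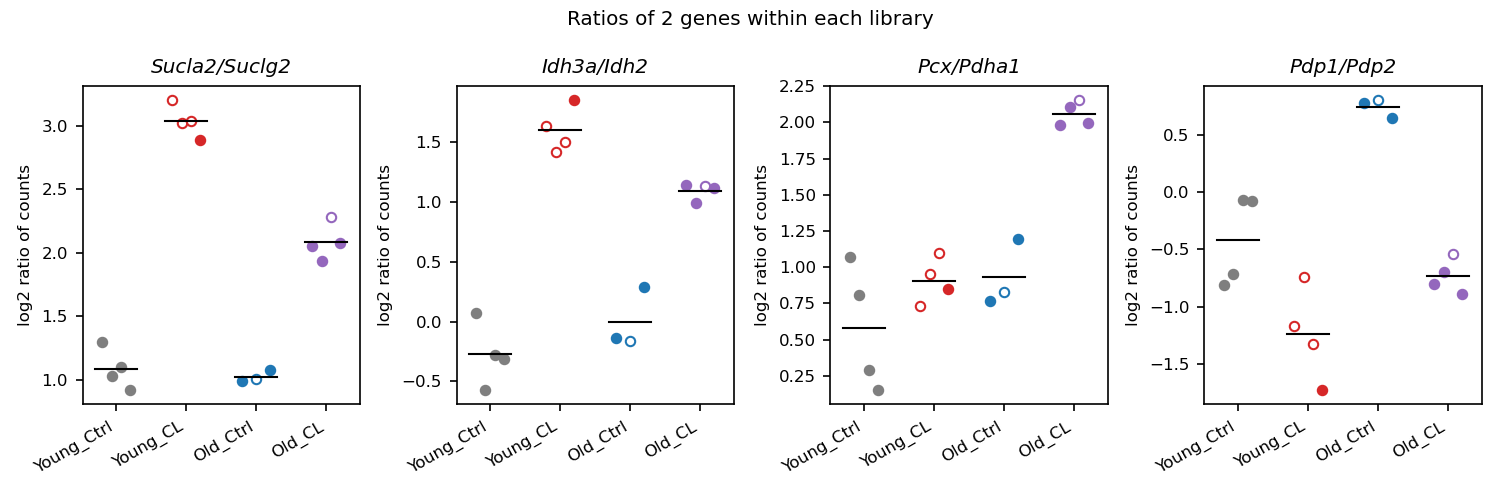
log2 ratio of the counts of 2 genes within each library, by group, for Sucla2 to Suclg2, Idh3a to Idh2, Pcx to Pdha1 and Pdp1 to Pdp2; bars mark group means, and open dots the 5 libraries rich in muscle transcripts. Sucla2 to Suclg2 is 2.89 to 3.20 in young CL and 1.93 to 2.28 in aged CL libraries, and Pcx to Pdha1 is 1.98 to 2.15 in aged CL libraries alone.

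With vehicle, 7 of the 35 genes differed with age, where 27.2% of all genes did: 5 were higher and 2 lower in aged than in young mice, where 15.1% and 12.2% of all genes tested were called, and 28 did not pass (median log2 difference 0.05, over all genes 0.03). The shares called were no larger than over all genes, so these counts do not set the 35 genes apart. The 7 were 5 regulators of pyruvate dehydrogenase and the enzymes Got2 and Glud1. Pdk1 was lower, 63.3 ± 5.78 CPM in Old_Ctrl (SD, n = 3) against 101 ± 8.23 in Young_Ctrl (n = 4) and without overlap (log2 difference -0.68, SE 0.12, edgeR adjusted p = 0.002). Pdp2 was lower too, from 9.94 to 12.5 CPM in Old_Ctrl against 15.5 to 20.5 CPM in Young_Ctrl (log2 difference -0.62, SE 0.15, edgeR adjusted p = 0.0099). Pdp1 was higher by 0.51 (SE 0.13, edgeR adjusted p = 0.01), at 17.1 to 19.6 CPM against 10.7 to 14.8 CPM. Pdk2 and Pdk4 were higher by 1.10 and 1.08, with overlapping libraries (edgeR adjusted p = 0.011 and 0.043). Got2 and Glud1 were higher by 0.31 and 0.34 without overlap (edgeR adjusted p = 0.029 and 0.02).

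Of these, Pdk1 and Pdp2 kept their call whichever library was left out. The count of called genes fell to 2 without Old_Ctrl 4, where 11.3% of all genes were called. It reached 12 without Young_Ctrl 1, the library that stood above its group, where 38.1% of all genes were called. Without Old_Ctrl 4 the adjusted p was 0.065 for Pdk2, 0.054 for Pdp1, 0.066 for Got2 and 0.12 for Glud1. Got2 also lost its call without Young_Ctrl 3, Young_CL 3 or Old_Ctrl 3 (adjusted p = 0.064 to 0.12), and Pdk4 in 9 of the 15 fits that left out a library (adjusted p up to 0.16, without Old_Ctrl 3). Without the 5 muscle-rich libraries 3 of the 35 genes were called, where 22.8% of all genes were. B cell and lymph node markers were lower in aged vehicle libraries for 13 of 14 genes (697 to 1244 against 1704 to 2426 CPM), macrophage markers higher for 6 of 8 (1548 to 2803 against 759 to 1088 CPM) and thermogenic markers lower for 4 of 9 (32.7 to 42.6 against 65.9 to 209 CPM). Progenitor and stromal markers were higher for 3 of 5 (3696 to 10419 against 3131 to 4833 CPM), and mammary epithelial markers for 2 of the 3 tested (4.03 to 9.84 against 2.24 to 3.27 CPM). Adjusted for the lymph node score, 0 of the 35 genes were called, and 0.209% of all genes. The score did not overlap between these groups (6.62 to 7.19 in Young_Ctrl, 5.42 to 6.21 in Old_Ctrl). This fit therefore cannot tell age from the lymph node shift, and the part of the marker shifts was not tested.

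With CL, the aged pad had lower levels of 15 of the 35 genes than the young pad and a higher level of 1, where 19.4% and 20.5% of all genes were called lower and higher; the median log2 difference was -0.41, over all genes -0.01. Without overlap, 16 of the 35 were lower and 3 higher, where 21.4% and 23.5% of all genes separated. This comparison shares its libraries with those above. The 5 pyruvate dehydrogenase genes were lower without overlap, Pdhb most, at 335, 305, 336 and 329 CPM in Old_CL against 873, 677, 586 and 729 CPM in Young_CL (log2 difference -1.13, SE 0.17, edgeR adjusted p = 0.00018). Pdha1, Dlat, Pdhx and Dld differed by -0.63, -0.69, -0.64 and -0.58 (edgeR adjusted p = 0.0024 to 0.01). Every aged CL library lay below every young CL library for all 5. Sucla2 was lower by -1.23 (SE 0.17, edgeR adjusted p = 7.1e-05), Sdhd by -0.99 (SE 0.13, edgeR adjusted p = 4e-05), Pdk1 by -1.10 (SE 0.11, edgeR adjusted p = 5.9e-06) and Dlst by -0.70 (SE 0.12, edgeR adjusted p = 0.00043). Mpc2 stood at -0.69, Idh1 at -0.44, Idh3b at -0.45, Pdp2 at -0.46, Sdha at -0.42 and Sdhc at -0.41 (edgeR adjusted p = 0.0047, 0.014, 0.028, 0.014, 0.034 and 0.038). Idh2 was the gene called higher, at 259.9, 277, 297 and 266 CPM in Old_CL against 226, 217, 192 and 211 CPM in Young_CL (log2 difference 0.38, SE 0.13, edgeR adjusted p = 0.035; -0.071 with the lymph node score as a covariate).

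Cs and Mpc1 did not pass here (-0.44 and -0.50, edgeR adjusted p = 0.053 and 0.094), although their aged CL libraries all lay below the young ones; nor did Pcx (0.53, adjusted p = 0.16), whose aged CL libraries all lay above (-0.70 with the lymph node score as a covariate). Leaving out Young_Ctrl 1, a library outside this contrast that adds to the common estimate of spread, called 25 of the 35 genes and 43.8% of all genes. Among the 25 were Cs (edgeR adjusted p = 0.0071), Mpc1 (0.0038) and Pcx (0.025). Cs passed as well without Young_Ctrl 3 or 4 or Young_CL 3 (edgeR adjusted p = 0.026 to 0.048). Idh3b, Sdha, Sdhc and Idh2 lost their calls in several fits without 1 of the Young_CL or Old_CL libraries (adjusted p up to 0.075, 0.088, 0.11 and 0.11). Pdk4 did not pass (0.39, edgeR adjusted p = 0.38), but stood at 0.86 (adjusted p = 0.027) without Young_CL 4, its highest young library, and at -0.70 without the 5 muscle-rich libraries. With the close libraries Old_CL 1, 2 and 4 summed into 1, 6 genes were called, where 24.8% of all genes were. Leaving out the 5 muscle-rich libraries keeps Young_CL 4 alone as the young CL library, so calls of that fit are not counted here. All 9 thermogenic markers were lower in aged CL (566 to 699 against 1839 to 2722 CPM), 6 of 12 adipocyte markers were higher (91121.5 to 111360 against 66456 to 75982 CPM) and 14 of 14 lymph node markers were lower (508 to 688 against 1040.0 to 1422 CPM). With the lymph node score as a covariate 23 genes were lower and 0 higher, where 11.8% of all genes were called in either direction. The score did not overlap here either (4.82 to 5.29 in Old_CL, 5.99 to 6.36 in Young_CL). This fit therefore cannot tell age from the lymph node shift, and the part of the marker shifts was not tested.

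Whether the CL response itself differed with age was tested by the age by CL interaction. It passed for 4 of the 35 genes, where 7.08% of all genes did. The response was smaller in aged mice for all 4 and larger for 0, where 3.77% and 3.31% of all genes tested were called in these directions. The response of Sdhd was 2.12 in young and 1.03 in aged mice (log2 difference -1.09, SE 0.19, edgeR adjusted p = 0.0046). Sucla2 responded by 3.07 and 1.98 (log2 difference -1.09, SE 0.25, edgeR adjusted p = 0.017). For Dlst the responses were 2.19 and 1.41 (log2 difference -0.78, SE 0.18, edgeR adjusted p = 0.019), and for Mpc2 2.58 and 1.71 (log2 difference -0.87, SE 0.25, edgeR adjusted p = 0.047). In all 4 genes the vehicle libraries of the 2 ages overlapped and the aged CL libraries lay below the young CL libraries.

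The other 3 succinate dehydrogenase subunits did not pass, with interaction values of -0.47, -0.28 and -0.56 for Sdha, Sdhb and Sdhc (edgeR adjusted p = 0.19, 0.54 and 0.12), nor did Suclg2, the partner of Sucla2 (-0.23, adjusted p = 0.39), or the pyruvate dehydrogenase genes Pdhb and Pdhx (-0.79 and -0.64, adjusted p = 0.068 and 0.078). Over the 35 genes the median interaction was -0.42, against -0.02 over all genes. For 31 of 35 genes the signed log2 estimate was higher in young mice, Got2 and Pdp1 with their lower aged values included. That share was not counted over all genes. The count of called genes rested on single vehicle libraries. It was 17 without Young_Ctrl 1 (10.3% of all genes), with Pdhb, Pdhx, Sdha and Sdhc among them (edgeR adjusted p = 0.0053, 0.0097, 0.029 and 0.016). It was 1 without Old_Ctrl 4 (2.8% of all genes), where the adjusted p was 0.055 for Dlst, 0.058 for Sucla2 and 0.13 for Mpc2. Pdhb also passed without Young_CL 3 (adjusted p = 0.045). Mpc2 lost its call in 10 of the 15 fits that left out a library. Sdhd was called in all 15, but not without the 5 muscle-rich libraries (-1.04, adjusted p = 0.071), where 0 genes passed; with Old_CL 1, 2 and 4 summed 1 passed.

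**Figure D5:**
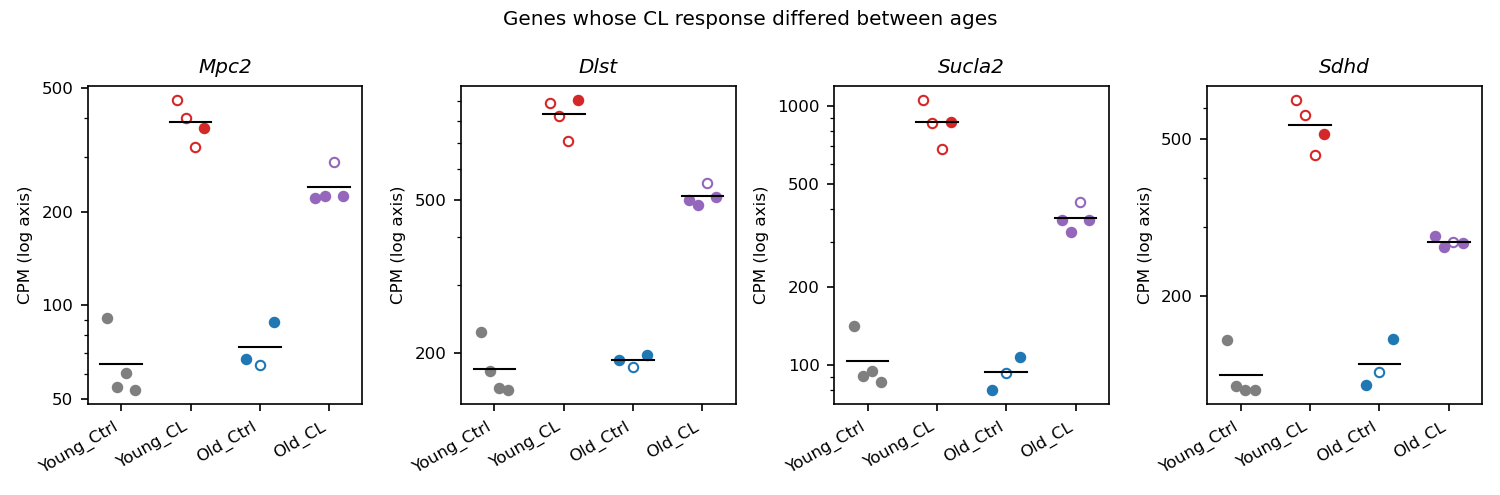
CPM on a log axis of Mpc2, Dlst, Sucla2 and Sdhd, the 4 genes with a called age by CL interaction, in each library by group; bars mark group means, and open dots the 5 libraries rich in muscle transcripts. Aged CL libraries lie between the vehicle and the young CL libraries in all 4 panels, for Sdhd at 266 to 284 CPM against 458 to 628 CPM in young CL.

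Genes that work beside the pathway followed it in part. Of 32 listed, 30 were tested. In young CL 20 rose and 5 fell, where 21.7% and 22.1% of all genes were called higher and lower. In aged CL 19 rose and 5 fell, where 23.1% and 22.2% were. Slc25a1, the carrier that exports citrate, rose by 2.98 and 2.29 in young and aged mice (edgeR adjusted p = 1e-07 and 1.3e-05). The lipoyl transferase gene Lipt1, which supplies the cofactor of both dehydrogenase complexes, rose by 1.71 and 1.36, and Lias, which makes that cofactor, by 1.09 in aged mice. The lactate dehydrogenase genes Ldhb and Ldha rose by 2.11 and 1.64 in young mice, and Gpt2 and D2hgdh, an alanine aminotransferase and a hydroxyglutarate dehydrogenase, by 1.58 and 0.95 in aged mice. Acly, which cleaves citrate in the cytosol to start fatty acid synthesis, rose by 3.31 in young mice (edgeR adjusted p = 1.2e-07); in aged mice it stood at 0.57 and did not pass (adjusted p = 0.074; 0.033 without Young_Ctrl 1 and 0.038 without Young_CL 2). The difference between these responses was -2.73 (edgeR adjusted p = 0.00088). The assembly factor gene Sdhaf1 was the other gene of the list with a called interaction (-0.65, edgeR adjusted p = 0.036), lost in 10 of the 15 fits without a library (adjusted p up to 0.095). Under vehicle, where 27.2% of all genes were called, 1 of the 30 was higher and 1 lower with age, Pck1 (1.14, edgeR adjusted p = 0.025; 0.066 to 0.10 without Young_Ctrl 3 or 4 or Old_Ctrl 4) and Me2 (-0.52, adjusted p = 0.0033). Under CL 8 were higher and 11 lower in aged mice, where 20.5% and 19.4% of all genes were, with Acly at -3.17, Slc25a1 at -0.94 and Ldhb at -0.82, and Pck2 at 0.73, Gpt2 at 0.91 and Ogdhl at 2.26 (edgeR adjusted p at most 0.0026). Gpt2 stood at -0.15 once the lymph node score was included.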

How the data were processed

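Polyadenylated RNA from 15 inguinal fat samples was sequenced, and the authors deposited raw counts per gene, without normalization. The counts came from STAR alignments to mm9 and featureCounts of the Subread package, per the submitters' processing notes; versions, strand setting and the treatment of reads with several matches are not given in the sources used here. A replicate numbered 2 of Old_Ctrl was not analysed here.

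Groups were taken from the sample titles. Genes were filtered with filterByExpr, leaving 15288 of 24015, and fitted over all 15 libraries with 1 mean per group by edgeR 4.0.16 (R 4.3.3; TMM factors, robust quasi-likelihood test). P-values were Benjamini-Hochberg adjusted over all 15288 genes, with 0.05 as the threshold, and the SE is the absolute log2 change divided by the square root of F. CPM are TMM-scaled; ratios within a library used an offset of 0.5 counts. The interaction is the aged minus the young CL response. The scripts were tested on simulated data. The 35 genes, the marker lists, the muscle-rich libraries and the close Old_CL libraries were chosen with earlier results of these data known.

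Values are printed for genes with the 4 largest called changes in each direction, genes that moved against the others or did not pass with CL, Cs, the kinases, the phosphatases and the carriers, beside log2 changes of the other members; up to 6 other pathway genes per comparison were named by smallest p, and further ones were named after their values were seen. Not every gene that this rule names is reported here. The alternatives tried were upper-quartile and RLE factors, DESeq2 1.42.0, limma-voom (limma 3.58.1), other filters, a replicate block, leaving out each library or the 5 muscle-rich ones, marker scores as covariates, Old_CL 1, 2 and 4 summed, and the 2 groups alone. Promoter windows are RefSeq's on GRCm38.p6.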

Additional observations from a re-analysis of the deposited data

Results flagged for a closer look

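Within a group of 4 libraries, 18 of 105 sets of values held 1 library whose gap to the nearest other, as a share of the whole range, exceeded Dixon's critical value. For a single set chance gives about 1 in 20. These sets share their libraries and are not independent, so that rate is no measure for the count of 18. In Young_Ctrl 1 this was so for 9 genes, all higher than in the other 3 libraries: Mpc1 at 96.0 CPM (others 39.0 to 46.4), Pdha1 at 359 CPM (others 203 to 226), Pdhb at 184 CPM (others 108 to 119), Dlat at 119 CPM (others 58.6 to 67.9), Idh1 at 213 CPM (others 156 to 161), Idh3a at 179.9 CPM (others 82.2 to 97.1), Suclg2 at 57.5 CPM (others 44.3 to 45.5), Sucla2 at 142 CPM (others 86.2 to 95.4) and Sdhd at 154 CPM (others 115 to 118). The adipocyte marker sum of this library was also the highest of its group, 57296 CPM, and its part in these values was not tested.

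In Old_CL 3, which was rich in muscle transcripts, 7 genes stood above the other 3 libraries: Mpc2 at 289 CPM, Pdk4 at 837 CPM, Idh3g at 579 CPM, Ogdh at 916 CPM, Suclg1 at 283 CPM, Mdh2 at 959 CPM and Glud1 at 477 CPM. The other 3 libraries of that group were the close ones, so small gaps stand out there. Pdk4 also stood apart in Young_Ctrl 2 (140.5 CPM, others 71.0 to 76.4) and in Young_CL 4 (840.3 CPM, others 312 to 377), the young CL library with few muscle transcripts.

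The CL response differed between the ages by the test of the interaction for Mpc2 (-0.87), Dlst (-0.78), Sucla2 (-1.09) and Sdhd (-1.09), in log2 units as aged minus young. Of all genes 7.08% were called by this test. Mpc2 lost its call in 10 of the 15 fits that left out a library, and Dlst and Sucla2 in 1 each.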

How the results depend on the processing

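The CL counts ran from 29 to 34 called genes of 35 in young and from 28 to 34 in aged mice over all alternatives. Of all genes 9.39% to 49.6% were called there in young and 16.7% to 50.5% in aged mice. With age under vehicle, 7 genes were called, and 0 with the lymph node score as a covariate (0.209% of all genes) and 2 with the 2 groups alone (12.6%). Leaving out single libraries gave 2 to 12 (11.3% to 38.1% of all genes). With age under CL, 16 were called, and 6 with Old_CL 1, 2 and 4 summed (24.8% of all genes) and 25 with the 2 groups alone (49.2%). Leaving out single libraries gave 12 to 25 (31.9% to 43.8% of all genes). For the interaction, 4 were called, and 7 by DESeq2 (12.2% of all genes), 9 with the lymph node covariate (12.5%) and 1 with the summed libraries (0.902%). Leaving out single libraries gave 1 to 17 (2.8% to 13.5% of all genes). Of the ratios 6 passed, 0 without the muscle-rich libraries and 0 to 6 when single libraries were left out, where fewer samples set the smallest p.

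Directions turned for values near 0, with few libraries left, or with the lymph node score as a covariate. In young CL, Pdp1 was -0.0050 with upper-quartile factors and -0.12 without the muscle-rich libraries. In aged CL, Pdk1 was -0.014 with RLE factors, -0.069 with upper-quartile factors, -0.017 by DESeq2, -0.025 with the 2 groups alone and -0.061 to 0.052 without single libraries. With age under CL, Pdk2 was -0.037 and Pdk4 -0.70 without the muscle-rich libraries. With the lymph node covariate, which kept every library, Pdk2 was -0.70, Idh2 -0.071, Pcx -0.70 and Gpt2 -0.15. In the main fit Pdk2, Idh2 and Pcx stood at 0.38, 0.38 and 0.53, and Idh2 and Gpt2 were called higher. Among the ratios, Mpc1 to Mpc2 was 0.098 in young CL and -0.15 in age under CL without the muscle-rich libraries, and Pdk4 to Pdk2 in age under CL was -0.66 there and -0.062 to 0.34 without single libraries. With age under vehicle, single libraries moved Pdk4 to Pdk2 from -0.45 to 0.097, Got2 to Glud1 from -0.13 to 0.085 and Sucla2 to Suclg2 from -0.12 to 0.0052. The cause was not tested.

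The replicate numbers were not used as pairs in the main fit: 6 of 21 same-numbered pairs had deviations correlated over 0.1 (range -0.347 to 0.343). Such correlations cannot show whether samples of the same number were handled together. With a replicate block 34, 33, 5, 13 and 3 of the 35 genes were called in young CL, aged CL, age under vehicle, age under CL and the interaction. Of all genes 40.5%, 40.1%, 23.6%, 36.6% and 4.19% were called there, in the same order. The ratios Pdk4 to Pdk2 and Got2 to Glud1 stood at 0.097 and 0.0013 with age under vehicle. All 6 ratios that passed with age under CL lost their call under the block (adjusted p = 0.18, from sign flips of 4 pairs, too few to reach the threshold).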
